A study of Homo sapiens with 12 samples.

Results

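ADAMTS4 and 9 related genes of the zinc metalloprotease field were followed in MiaPaCa-2 cells, a long-established line from a human pancreatic cancer. The members are ADAMTS1, ADAMTS4, ADAMTS5 and ADAMTS9, the membrane proteases ADAM9, ADAM10, ADAM12, ADAM17 and ADAM19, and the inhibitor TIMP3. They are 10 of the 70116 genes in the table and were found by their symbols. ADAMTS4 was selected on its log2 fold change after knockdown, which was among the largest rises in these data, so its values are given as a description, with no test. The cells were transfected with a control small interfering RNA (siControl) or with one against SLC25A1 (siSLC25A1), ACLY (siACLY) or ACO1 (siACO1), with 3 replicates per group and 12 libraries in all. The parent line is shared by all groups, and no other allele or agent is given in the labels, nor are the siRNA sequences, the time after transfection or the medium. SLC25A1 is the mitochondrial citrate carrier, ACLY splits cytosolic citrate to acetyl-CoA, and ACO1 is the cytosolic aconitase. The labels do not say whether replicates were separate cultures, so p-values measure the spread between these libraries, which may be technical.

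All members but TIMP3 belong to the adamalysins, enzymes that hold a zinc ion in the active site and are made as inactive precursors with a prodomain. The ADAMTS proteins are secreted and carry thrombospondin repeats, and ADAMTS4 is best known as an aggrecanase that cleaves aggrecan, versican and brevican in the extracellular matrix. The ADAM proteins mostly span the membrane, where ADAM10 and ADAM17 release the ectodomains of growth factors, receptors and adhesion molecules. TIMP3 binds the matrix and inhibits ADAM17, ADAM10, ADAMTS4 and ADAMTS5.

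The shared chemistry of the family can be read in the coding sequence of 3 members on which the results turn. In the GENCODE release 29 transcripts on GRCh38, the zinc-binding site is a run of codons in which 3 histidines, shown in capitals, hold the metal. The run lies across coding exons 3 and 4 of ADAMTS4 (chr1:161195613-161196180, minus strand, first residue 361 of 837), across exons 9 and 10 of ADAM10 (chr15:58627881-58633225, minus strand, first residue 383 of 748) and within exon 11 of ADAM17 (chr2:9510078-9510110, minus strand, first residue 405 of 824). All 3 are printed 5′ to 3′ on the coding strand.
ADAMTS4: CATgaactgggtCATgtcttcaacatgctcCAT
ADAM10: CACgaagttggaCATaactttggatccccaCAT
ADAM17: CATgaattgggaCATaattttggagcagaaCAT

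Library totals ran from 24159424 to 43792811 counts, and a count of 0 allows a level of up to 0.0674 to 0.124 CPM (read counts scaled to a common library size) in a library, taking 3 counts as the limit and counting error only. Each targeted transcript was low in its own knockdown, at 8.78% of siControl for SLC25A1, 7.25% for ACLY and 3.75% for ACO1. Among replicates, siACO1 replicate 3 stood apart from replicates 1 and 2 of its group, with a chi-square per degree of freedom of 11.4 and 12.2, against 2.28 between replicates 1 and 2 and at most 5.58 in the other groups. Of the 6 epithelial markers, KRT8, KRT18 and KRT19 were abundant, while EPCAM and CDH1 had at most 2 counts in any library. The summed epithelial markers were 3607 to 3745 CPM in siControl, 3125 to 3453 in siSLC25A1, 3824 to 3923 in siACLY and 2067 to 2181 in siACO1. The summed fibroblast markers came from COL1A2 alone, with the other 6 of 7 under 10 counts, and were 874.9 to 894.9 CPM in siControl, 784 to 844.4 in siSLC25A1, 826.2 to 875.8 in siACLY and 1546 to 1592 in siACO1. Summed mesenchymal markers, mostly VIM, were 3570 to 3718 CPM in siControl, 3922 to 3993 in siSLC25A1, 4374 to 4912 in siACLY and 3539 to 3903 in siACO1. One of them, ZEB1, had means of 63.9, 100.3, 96.8 and 63.5 CPM in that order, and VIM of 3561, 3843, 4558 and 3618. The epithelial marker KRT19 had means of 88.5, 120.9, 141.1 and 52.0 CPM. All of these were higher in both groups where ADAMTS4 was higher. KRT8 and KRT18 were not, with siSLC25A1 means of 2011 and 1151 CPM against 2278 and 1325 in siControl. The 5 immune markers summed to 1.26 to 2.07 CPM in siControl, 1.93 to 2.65 in siSLC25A1, 2.34 to 2.78 in siACLY and 2.83 to 3.18 in siACO1. PTPRC and CD3E were at 0 and CD68 had at most 6 counts, while CD14 had 7 to 24 counts and LYZ 23 to 77, with LYZ means of 0.836 CPM in siControl, 1.78 in siSLC25A1, 2.06 in siACLY and 1.99 in siACO1. In all groups, all 4 endothelial markers were under 10 counts and all 4 acinar markers were at 0. The part of these shifts in the results below was not tested.

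ADAMTS4 stood highest after SLC25A1 knockdown, intermediate after ACLY knockdown and lowest after ACO1 knockdown. The gene (ENSG00000158859.10) lies on chromosome 1 from 161184308 to 161199056, on the minus strand, and shares no exon bases with another gene. Of the 31-base stretches in its transcripts, 7.95% also occur in transcripts of other genes. What this does to its counts was not tested. Levels are CPM after TMM scaling (trimmed mean of M values), and group levels are means ± SD. In the 3 siControl libraries ADAMTS4 was at 13.03, 14.54 and 13.76 CPM. In siSLC25A1 it was at 41.43, 55.01 and 53.56 CPM, and in siACLY at 24.91, 28.47 and 29.11 CPM. In siACO1 it was at 11.63, 10.95 and 10.27 CPM. No library of one group overlapped another group, and the lowest siSLC25A1 library, replicate 1, was still above the highest siACLY library. These levels rest on 289 to 1367 reads per library.

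The mean level of ADAMTS4 was 13.8 ± 0.753 CPM in siControl and 50 ± 7.46 in siSLC25A1 (SD, n = 3), a ratio of 3.63 and a log2 fold change of 1.86. In siACLY it was 27.5 ± 2.27 CPM, 2.00 times the control mean, with a log2 fold change of 0.99. In siACO1 it was 10.95 ± 0.679 CPM, or 79.5% of the control mean, with a log2 fold change of -0.33. Ordered from the highest log2 fold change, ADAMTS4 was number 17 of the 16197 genes tested in siSLC25A1, number 577 in siACLY and number 13893 in siACO1. Between knockdowns the log2 difference was 0.87 for siSLC25A1 over siACLY, 2.19 for siSLC25A1 over siACO1 and 1.32 for siACLY over siACO1. With each library left out in turn, the log2 fold change against siControl stayed between 1.78 and 1.98 for siSLC25A1, between 0.94 and 1.06 for siACLY and between -0.38 and -0.29 for siACO1. These ranges reuse the libraries on which ADAMTS4 was selected, so they describe the spread and do not support the rise. A level per library cannot tell apart more cells with the transcript and more transcript per cell.

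**Figure D1:**
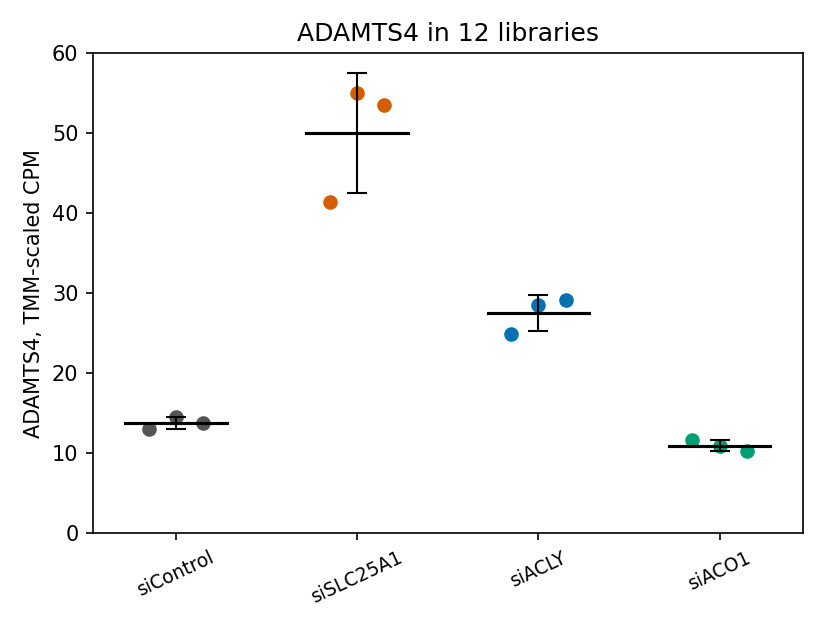
ADAMTS4 level in TMM-scaled CPM (vertical axis, from 0) in the 12 libraries of the 4 groups (horizontal axis). Points are libraries, the long line is the group mean and the bar is ± 1 SD. The siSLC25A1 libraries sit between 41.43 and 55.01 CPM, above all other libraries, and the siACO1 libraries between 10.27 and 11.63, below all others.

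The same arrangement of groups was counted over all genes as a description, since ADAMTS4 was selected on these libraries. Of 16197 genes, 707 (4.37%) had 4 groups with no overlap, and 87 (0.537%) had the order seen for ADAMTS4, siSLC25A1 over siACLY over siControl over siACO1. The 5 genes whose levels were most like those of ADAMTS4 over the 12 libraries, among 12761 genes compared, were COL13A1 (Pearson r 0.987), C5 (0.985), MAP4K4 (0.983), LPIN2 (0.982) and WT1-AS (0.982). These correlations describe 4 groups of 3 libraries and carry no test. COL13A1 encodes a transmembrane collagen, and its mean was 67.7 ± 2.18 CPM in siControl, 98.4 ± 4.16 in siSLC25A1, 82.9 ± 3.60 in siACLY and 65.5 ± 2.35 in siACO1. C5, the complement component, was at 16.1 ± 0.910, 25.7 ± 2.02, 21.96 ± 0.777 and 15.2 ± 0.518 CPM in the same groups. MAP4K4, a kinase, was at 175.8 ± 3.47, 230.9 ± 4.77, 200.2 ± 5.74 and 167.5 ± 8.61 CPM. LPIN2, a phosphatidate phosphatase, was at 72.7 ± 0.408, 93.5 ± 2.53, 83.0 ± 2.63 and 71.1 ± 2.66 CPM. WT1-AS, an antisense gene whose reads cannot be told from those of its partner where counting ignores strand, was at 11.9 ± 0.657, 33.1 ± 1.27, 21.8 ± 0.958 and 10.4 ± 0.198 CPM. Of the 5, WT1-AS had the largest ratio of siSLC25A1 to siControl, and all 5 ratios were smaller than that of ADAMTS4. ADAMTS4 was selected for a large rise and the 5 for correlation, so that difference follows largely from the selection.

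The other ADAMTS members were at or near 0. ADAMTS1, which also cleaves aggrecan and versican, had 2, 1 and 2 counts in siControl, 0, 0 and 1 in siSLC25A1, 10, 2 and 2 in siACLY and 0, 1 and 0 in siACO1. The 10 counts stood alone in siACLY replicate 1, the deepest library, and the gene did not pass the filter on low counts. ADAMTS5, the other major aggrecanase, and ADAMTS9, a versican-cleaving enzyme, had 0 counts in all 12 libraries. ADAMTS4 was therefore the 1 aggrecanase among the members with more than 10 counts in any library. ADAMTS1 lies at 26835747 to 26845409 on chromosome 21, ADAMTS5 at 26917912 to 26966513 on chromosome 21 and ADAMTS9 at 64515654 to 64688000 on chromosome 3, all on the minus strand.

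ADAM9, ADAM10 and ADAM17 were expressed in all libraries and differed from siControl by at most 1.22-fold, in different directions in different knockdowns. Of the 4 members other than ADAMTS4 that could be tested, 2 were called in siSLC25A1, at an adjusted p under 0.05, where 19.6% of all genes tested were called, 10.3% higher and 9.27% lower. In siACLY 3 of 4 were called, against 36.7% of all genes, 18.4% higher and 18.3% lower. In siACO1 0 of 4 were called, against 37.1% of all genes, 17.8% higher and 19.3% lower. None of the 4 had an unadjusted p under 0.05 in siACO1 in edgeR, and DESeq2 also called 0. The 3 comparisons share the siControl libraries, so they are not independent of each other.

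ADAM9, a membrane protease that can shed growth factors, moved in opposite directions after loss of the citrate carrier and of ACLY. The gene (ENSG00000168615.13) lies on chromosome 8 from 38996869 to 39105144 on the plus strand. It was at 325.5, 332.2 and 342.1 CPM in siControl, 382.7, 380.9 and 384.6 in siSLC25A1, 288.5, 284.4 and 282.2 in siACLY and 327.9, 324.9 and 307.4 in siACO1. The siSLC25A1 libraries lay above all controls and the siACLY libraries below all others, while siACO1 overlapped siControl. ADAM9 rose in siSLC25A1, with a mean of 333.2 ± 8.32 CPM in siControl and 382.7 ± 1.84 in siSLC25A1, a log2 fold change of 0.20 (SE 0.038, edgeR adjusted p 0.000272). It fell in siACLY, where the mean was 285 ± 3.23 CPM, by 0.23 on the log2 scale (SE 0.038, adjusted p 2.69e-05). In siACO1 it was at 320.1 ± 11.1 CPM, a log2 fold change of -0.06 with a 95% interval from -0.14 to 0.02 (adjusted p 0.248).

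ADAM10, the main sheddase of Notch receptors and cadherins, rose slightly in siSLC25A1. The gene (ENSG00000137845.15) lies on chromosome 15 from 58588807 to 58749978 on the minus strand. It was at 230.3, 216.5 and 228.3 CPM in siControl, 256.1, 255.7 and 246.6 in siSLC25A1, 233.4, 248.6 and 243.8 in siACLY and 226.3, 226.8 and 226.8 in siACO1. The siSLC25A1 and siACLY libraries were above all 3 controls and the siACO1 libraries within their range. The means were 225 ± 7.46 CPM in siControl and 252.8 ± 5.33 in siSLC25A1, a rise of 0.17 on the log2 scale (SE 0.039, adjusted p 0.00245). In siACLY its mean was 241.9 ± 7.77 CPM, a log2 fold change of 0.10 (SE 0.039, adjusted p 0.0384), and this call was lost under 11 of 18 alternatives, where the log2 fold change stayed between 0.07 and 0.15 over all 18. The libraries whose omission ended the call were siControl replicates 1, 2 and 3, siSLC25A1 replicates 2 and 3, siACLY replicates 2 and 3 and siACO1 replicates 1 and 2, with adjusted p from 0.0503 to 0.219. DESeq2 size factors in place of TMM, and no filter on low counts, also ended the call. In siACO1 the log2 fold change of ADAM10 was 0.01 (95% interval -0.07 to 0.09, adjusted p 0.874).

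ADAM17, the converting enzyme of tumour necrosis factor and the main sheddase of amphiregulin and TGF-alpha, rose in siACLY. The gene (ENSG00000151694.15) lies on chromosome 2 from 9488486 to 9556732 on the minus strand. Of the 31-base stretches in its transcripts, 16.5% also occur in transcripts of other genes. Of its exon bases, 13.6% overlap the plus-strand genes AC073195.1 and IAH1, whose reads cannot be told from those of ADAM17 where counting ignores strand. It was at 59.98, 60.44 and 59.93 CPM in siControl, 61.17, 65.6 and 63.71 in siSLC25A1, 69.84, 73.31 and 76.8 in siACLY and 65.28, 64.27 and 62.92 in siACO1. All knockdown libraries lay above the 3 controls, and the siACLY libraries above all others. The siControl mean of 60.1 ± 0.279 CPM compared with 73.3 ± 3.48 in siACLY, a rise of 0.28 on the log2 scale (SE 0.048, adjusted p 2.17e-05). In siSLC25A1 it was at 63.5 ± 2.22 CPM, a log2 fold change of 0.08 with a 95% interval from -0.02 to 0.18 (adjusted p 0.281). In siACO1 it was at 64.2 ± 1.18 CPM, a log2 fold change of 0.09 with a 95% interval from -0.01 to 0.19 (adjusted p 0.132), which passed the test with library totals in place of TMM (0.14, adjusted p 0.0222).

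**Figure D2:**
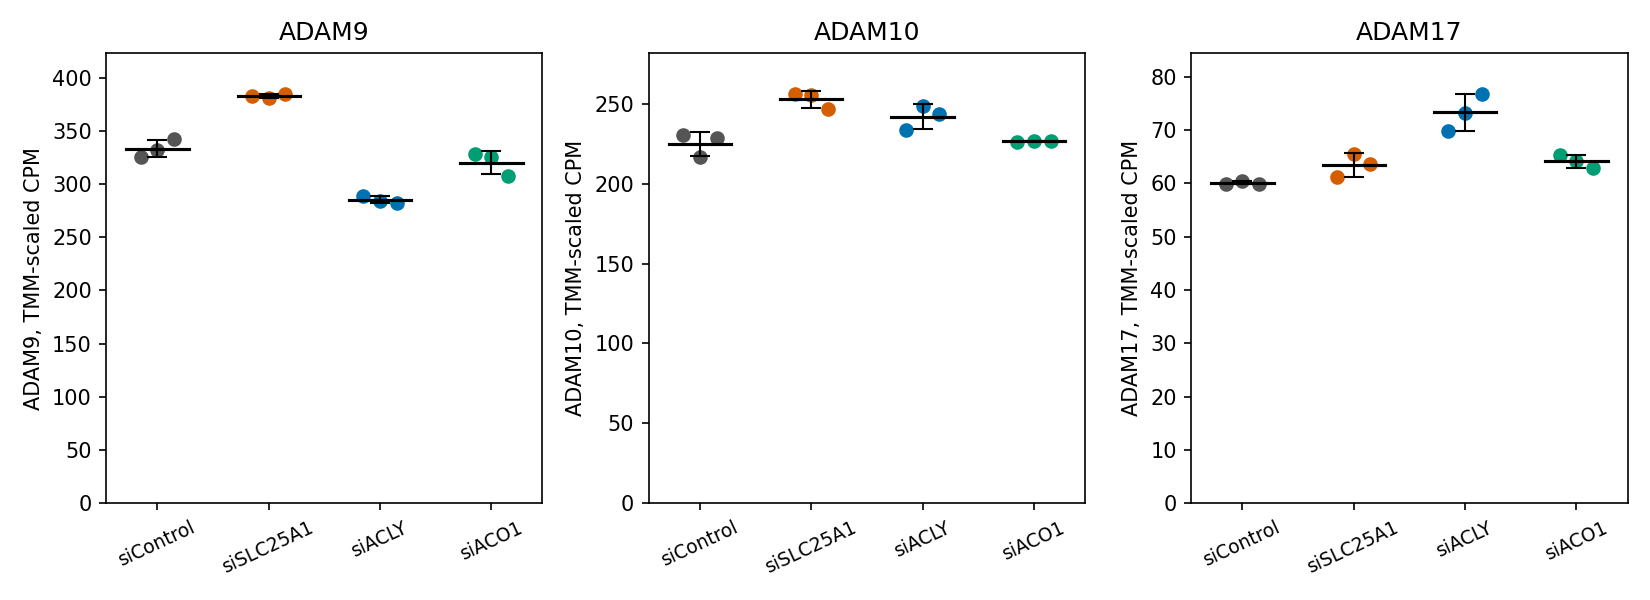
Levels of ADAM9, ADAM10 and ADAM17 in TMM-scaled CPM (vertical axes, from 0, 1 panel per gene) in the 12 libraries of the 4 groups (horizontal axis). Points are libraries, long lines are group means and bars are ± 1 SD. ADAM9 is highest in siSLC25A1 (380.9 to 384.6) and lowest in siACLY (282.2 to 288.5), and ADAM17 is highest in siACLY (69.84 to 76.8).

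Differences between knockdowns passed the test for ADAM9 in all 3 comparisons, for ADAM17 in 2 and for ADAM10 in 1. Between siSLC25A1 and siACLY 2 of 4 tested members were called, against 33.8% of all genes: ADAM9 was higher in siSLC25A1 by 0.42 on the log2 scale (SE 0.038, adjusted p 7.97e-10) and ADAM17 lower, at -0.21 (SE 0.048, adjusted p 0.00122). ADAM10 did not pass there, at 0.06 with a 95% interval from -0.02 to 0.15 (adjusted p 0.225). Between siSLC25A1 and siACO1 2 of 4 were called, against 42.1% of all genes: ADAM9 (0.26, SE 0.038, adjusted p 2.56e-06) and ADAM10 (0.16, SE 0.040, adjusted p 0.00176) were higher in siSLC25A1. ADAM17 did not pass there, at -0.01 with a 95% interval from -0.11 to 0.08 (adjusted p 0.834). Between siACLY and siACO1 2 of 4 were called, also against 42.1%: ADAM9 was lower in siACLY (-0.17, SE 0.038, adjusted p 0.000743) and ADAM17 higher (0.19, SE 0.048, adjusted p 0.00172). ADAM10 missed the threshold there, at 0.09 with a 95% interval from 0.01 to 0.17 (adjusted p 0.0568), although the groups did not overlap. It passed without siACLY replicate 1 (adjusted p 0.044) and with a filter of at least 10 counts per library (0.0398).

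**Figure D3:**
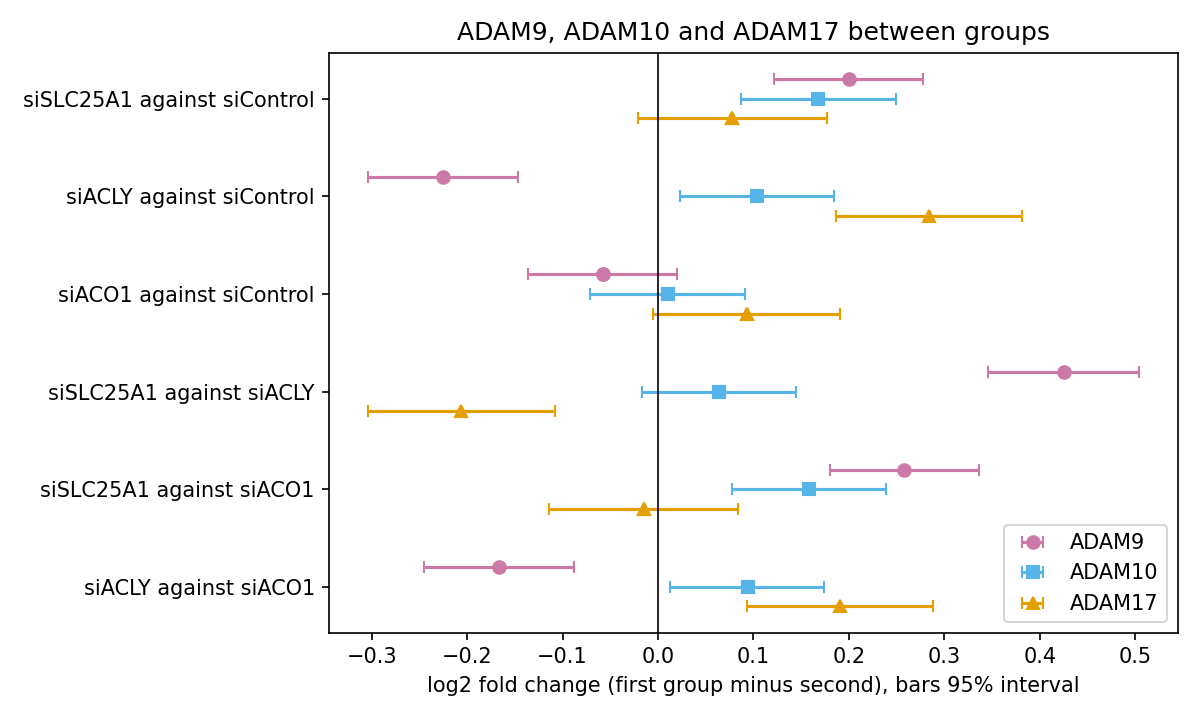
Log2 fold changes (horizontal axis, first group minus second) of ADAM9, ADAM10 and ADAM17 in the 6 comparisons (rows), with 95% intervals as bars. ADAM9 lies right of 0 in siSLC25A1 (0.20) and left of 0 in siACLY (-0.23), while ADAM17 is farthest to the right in siACLY against siControl (0.28).

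ADAM19 and ADAM12 were close to silent. ADAM19, a membrane protease that sheds neuregulin, had 14, 2 and 8 counts in siControl, 4, 12 and 2 in siSLC25A1, 16, 6 and 6 in siACLY and 5, 6 and 9 in siACO1. The groups overlapped in all 6 comparisons, with adjusted p from 0.718 to 0.988, and the 95% interval in siSLC25A1, from -1.32 to 1.22, shows how little these counts can resolve. ADAM12, a relative whose shorter form is secreted, had 1 count, in siACLY replicate 1, and 0 in the other 11 libraries. ADAM19 lies on chromosome 5 from 157395534 to 157575775 and ADAM12 on chromosome 10 from 126012381 to 126388455, both on the minus strand.

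TIMP3 was not detected, with 0 counts in all 12 libraries. It lies on chromosome 22 from 32801701 to 32863043 on the plus strand. Because TIMP3 inhibits both ADAM17 and ADAMTS4, the other inhibitors were counted from a list. Of 8 such genes 3 passed the filter: TIMP1, TIMP2 and SPOCK2. None was called in siSLC25A1 and TIMP1 alone was in siACLY. TIMP1 and TIMP2 both rose in siACO1, as they did without siACO1 replicate 3. The share of all genes that rose was 10.3% in siSLC25A1, 18.4% in siACLY and 17.8% in siACO1. TIMP1, which inhibits most matrix metalloproteases and ADAM10, rose in siACO1 from 359.1 to 451.9 CPM, by 0.33 on the log2 scale (SE 0.047, adjusted p 1.85e-06), and in siACLY to 398.8 CPM (0.15, adjusted p 0.0125), a call lost without siACLY replicate 3. TIMP2, which also takes part in the activation of MMP2, rose in siACO1 from 839.1 to 1067 CPM (0.35, SE 0.041, adjusted p 7.23e-08). COL1A2 also differed in siACO1, with a mean of 1576 CPM against 885.3 in siControl, while LUM was at 0 and DCN and PDGFRA had at most 2 counts in any library. The median log2 fold change of the 3 inhibitors was -0.08 in siSLC25A1, -0.05 in siACLY and 0.33 in siACO1, beside -0.004, 0.008 and 0.006 over all genes tested.

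Levels between members can be compared per length only, here as TMM-scaled CPM per kilobase of the union of a gene's exons, which may exceed the transcript that is expressed. In siControl ADAM9 was at 48.2 ± 1.20 CPM per kilobase, ADAM10 at 13.9 ± 0.461, ADAM17 at 5.59 ± 0.026, ADAMTS4 at 1.33 ± 0.0729, ADAM19 at 0.0317 ± 0.0223 and ADAMTS1 at 0.00732 ± 0.00314. Only the last 2 neighbours in that order overlapped between libraries. In siSLC25A1 ADAMTS4 reached 4.84 ± 0.722 CPM per kilobase, nearer to ADAM17 at 5.91 ± 0.207 than in siControl, but with no overlap between their libraries.

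**Figure D4:**
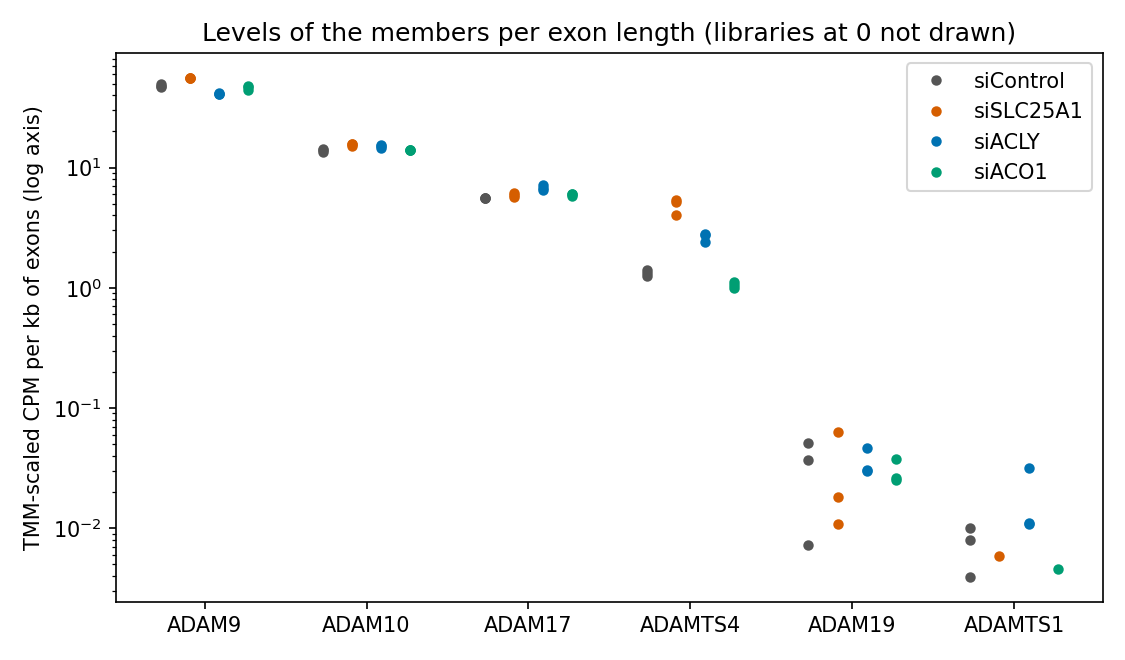
Levels of 6 members (horizontal axis) in TMM-scaled CPM per kilobase of exons (vertical axis, log scale). Each point is 1 library, coloured by group, and libraries at 0 are not drawn. ADAM9 lies highest and ADAM19 and ADAMTS1 lowest, and ADAMTS4 in siSLC25A1 (4.84 on average) comes nearest to ADAM17 (5.91).

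Among partners that carry the sheddases to the cell surface, RHBDF2 fell in siSLC25A1 and siACO1, and TSPAN33 rose in siACLY and fell in siACO1. ADAM17 leaves the endoplasmic reticulum bound to the inactive rhomboids iRhom1 and iRhom2, encoded by RHBDF1 and RHBDF2, with FRMD8 stabilising the complex. ADAM10 instead needs a tetraspanin of the TspanC8 group, such as TSPAN14, TSPAN15, TSPAN17 or TSPAN33, and the choice of tetraspanin steers it towards different substrates. Of 12 partner genes 10 were tested. In siSLC25A1 1 rose and 3 fell, in siACLY 1 rose and 4 fell, and in siACO1 1 rose and 7 fell, or 6 without siACO1 replicate 3, where PACS2 no longer passed. Of the 10, 6 in siSLC25A1, 5 in siACLY and 2 in siACO1 were not called. Over all genes 19.6%, 36.7% and 37.1% were called, with 10.3%, 18.4% and 17.8% higher and 9.27%, 18.3% and 19.3% lower. The 10 partners are too few to read against these shares. The tested partners had a median log2 fold change of -0.16 in siSLC25A1, -0.11 in siACLY and -0.21 in siACO1.

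RHBDF2 was at 47.8 CPM in siControl and fell to 37.1 in siSLC25A1 (-0.36, SE 0.054, adjusted p 8.46e-06) and to 31.7 in siACO1 (-0.59, SE 0.054, adjusted p 5.58e-10). In siACLY, where ADAM17 rose, RHBDF2 was at 48.7 CPM with a log2 fold change of 0.03 (adjusted p 0.692). FRMD8 fell in siSLC25A1 from 98.1 to 81.9 CPM (-0.26, adjusted p 9.32e-05). DLG1, a scaffold that binds sheddase tails, fell in siSLC25A1 from 467.4 to 366.9 CPM (-0.35, adjusted p 5.62e-08) and in siACLY to 396.5 CPM (-0.24, adjusted p 1.07e-05). The tetraspanins went separate ways. TSPAN33 rose in siACLY from 5.99 to 10.8 CPM (0.85, SE 0.112, adjusted p 5.32e-07) and fell in siACO1 to 2.94 CPM (-1.03, SE 0.132, adjusted p 3.23e-07). The difference between these knockdowns was 1.88 (SE 0.126). TSPAN15 fell in siACLY from 13.9 to 11.4 CPM (-0.29, adjusted p 0.00794) and in siACO1 to 9.80 CPM (-0.50, adjusted p 2.99e-05). Chosen after their values were seen, to complete the counts, TSPAN14 rose in siSLC25A1 (0.21, adjusted p 0.0117) and siACO1 (0.21, adjusted p 0.0052), and TSPAN17 and PACS2 fell in siACLY (-0.17, adjusted p 0.00333, and -0.21, adjusted p 0.00358). Likewise, FRMD8 (-0.275, adjusted p 1.65e-05) and DLG1 (-0.239, adjusted p 9.25e-06) also fell in siACO1. TSPAN17 (-0.174, adjusted p 0.00196) and PACS2 (-0.155, adjusted p 0.0328) fell there too.

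**Figure D5:**
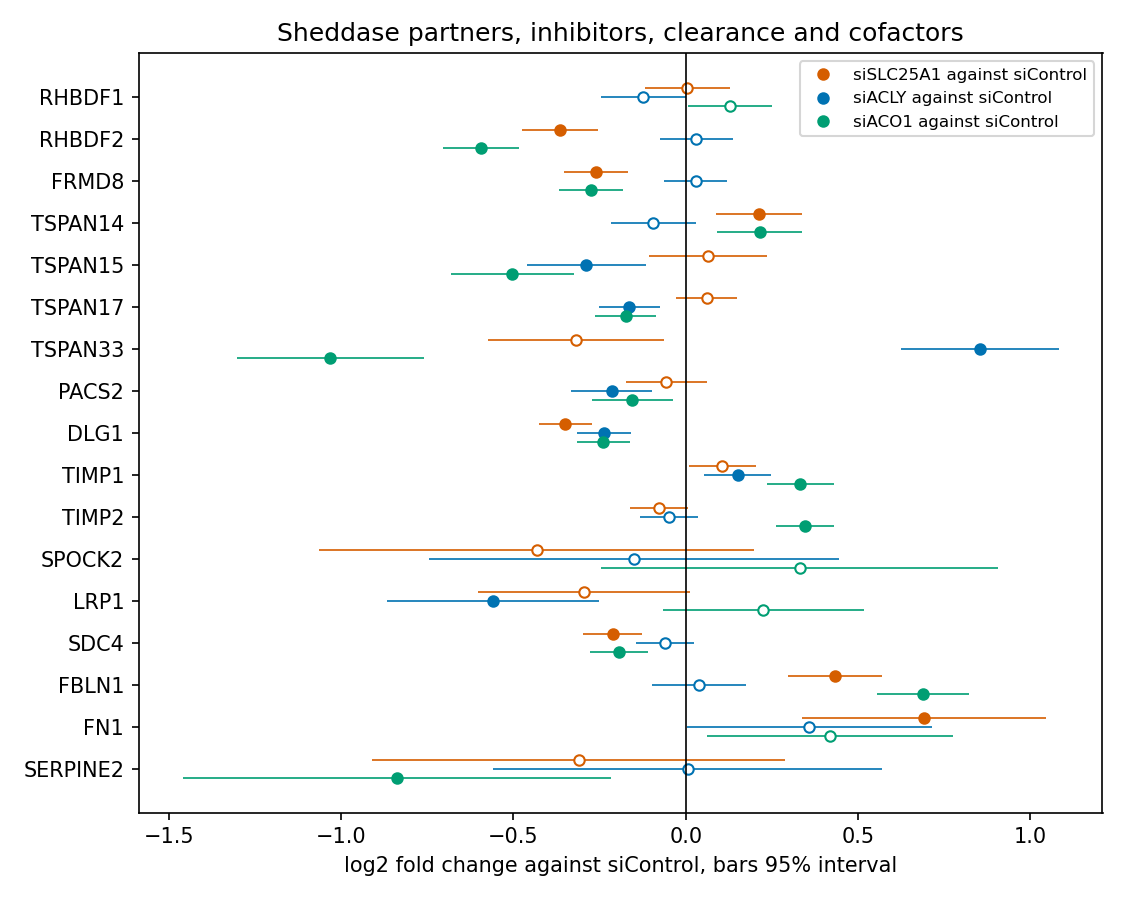
Log2 fold change against siControl (horizontal axis, bars 95% interval) of 17 genes (rows) that traffic, inhibit, clear or assist these proteases, in siSLC25A1, siACLY and siACO1. Filled points passed an adjusted p under 0.05 and open points did not. TSPAN33 lies at 0.85 in siACLY and -1.03 in siACO1, and RHBDF2 is lowest in siACO1 at -0.59.

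Several substrates of the sheddases changed by larger factors than ADAM9, ADAM10 or ADAM17. The list of substrates, HBEGF included, was chosen with earlier results of these data known. Their p-values are therefore a description and no independent support. Of 27 listed substrates 20 were tested: 5 rose and 4 fell in siSLC25A1, 6 rose and 5 fell in siACLY, and 7 rose and 7 fell in siACO1, also without siACO1 replicate 3. The share of all genes called in the same comparisons was 19.6%, 36.7% and 37.1%, with 10.3%, 18.4% and 17.8% higher and 9.27%, 18.3% and 19.3% lower. The medians of the tested substrates on the log2 scale were -0.10, 0.09 and 0.06 in the same order. HBEGF, the heparin-binding ligand of the EGF receptor, was at 13.9 ± 1.08 CPM in siControl. It rose to 41.4 ± 0.372 CPM in siSLC25A1 (1.57, SE 0.070, adjusted p 3.64e-16) and to 50.6 ± 2.98 in siACLY (1.86, SE 0.069, adjusted p 2.74e-18), with no overlap with the controls. In siACO1, named after its value was seen, it rose to 19.4 ± 1.58 CPM (0.49, SE 0.074, adjusted p 5.23e-06). AREG, which encodes amphiregulin, rose in siACLY from 29.9 to 50.7 CPM (0.76, SE 0.055, adjusted p 6.67e-12). L1CAM, an adhesion molecule, rose in siACLY from 19.3 to 32.1 CPM (0.73, adjusted p 4.38e-09), and, as seen after the choice of genes, fell in siACO1 to 13.8 CPM (-0.49, adjusted p 1.04e-05).

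Other substrates moved most in siSLC25A1 or siACO1. CXCL16, a membrane-bound chemokine, fell in siSLC25A1 from 13.1 to 8.01 CPM (-0.70, adjusted p 3.74e-06). BTC, the EGF receptor ligand betacellulin, fell in siACO1 from 18.8 to 9.61 CPM (-0.97, SE 0.082, adjusted p 1.52e-10). JAG1, a Notch ligand, rose in siACO1 from 21.4 to 34.7 CPM (0.70, SE 0.063, adjusted p 5.07e-10). IL6R, whose shed form carries interleukin-6 signals to other cells, rose in siSLC25A1 from 2.99 to 4.63 CPM (0.63, adjusted p 0.00806), a call lost without siControl replicate 1 or siSLC25A1 replicate 2. In siACO1 it fell to 1.46 CPM (-1.04, adjusted p 0.000104). The counts of substrates in siSLC25A1 are completed by genes named after their values were seen: AREG (0.28), EREG (0.26) and NOTCH2 (0.31) rose, and NOTCH3 (-0.25), JAG1 (-0.29) and SDC4 (-0.21) fell. Likewise the 5 that fell in siACLY were TNFRSF1A (-0.28), NOTCH1 (-0.68), NOTCH3 (-0.30), JAG1 (-0.17) and SDC1 (-0.55).

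The hyalectan and link protein genes that could be tested were low. The changes that passed the test were rises, which the filter on low counts favoured. Only VCAN among them encodes a matrix substrate of ADAMTS4. Of 8 hyalectan and link protein genes, the classical ADAMTS4 substrates and their stabilisers, 3 were tested: VCAN, HAPLN1 and HAPLN3. In siSLC25A1 1 rose, in siACLY 3 and in siACO1 2, also without siACO1 replicate 3, and none fell. The filter could be passed through the knockdown groups alone, and VCAN and HAPLN3 had siControl means of only 0.140 and 0.388 CPM. A fall of these genes could hardly be called, so the lack of falls says little. Of all genes 10.3%, 18.4% and 17.8% rose in these comparisons, and 3 genes are too few to read against that. In the same order, the list's median log2 fold change was 0.48, 1.49 and 1.86. HAPLN3, a link protein, rose from 0.388 to 1.11 CPM in siACLY (1.49, SE 0.335, adjusted p 0.000795) and to 1.43 CPM in siACO1 (1.86, SE 0.327, adjusted p 3.9e-05). HAPLN1 rose in siACLY from 1.24 to 2.06 CPM (0.76, adjusted p 0.0228), a call lost without siControl replicate 2, siControl replicate 3 or siACLY replicate 1. VCAN, which encodes versican and was named after its values were seen, was below 1 CPM in every group, at 0.140 in siControl, and rose to 0.443 in siSLC25A1, 0.860 in siACLY and 0.548 in siACO1 (adjusted p 0.0201, 2.41e-05 and 0.00175).

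Genes that clear or modulate secreted ADAMTS proteases were all 5 tested. In siSLC25A1 2 rose and 1 fell, in siACLY 1 fell, and in siACO1 1 rose and 2 fell, also without siACO1 replicate 3. In the same comparisons 10.3%, 18.4% and 17.8% of all genes rose and 9.27%, 18.3% and 19.3% fell, and 5 genes are too few to read against that. Median log2 fold changes of the list were -0.21, 0.01 and 0.22. LRP1, the endocytic receptor that takes up ADAMTS4 and ADAMTS5, fell in siACLY from 11.2 to 7.62 CPM (-0.56, SE 0.146, adjusted p 0.00551). FBLN1, a matrix cofactor of ADAMTS1, rose from 20.3 to 27.5 CPM in siSLC25A1 (0.43, adjusted p 1.5e-05) and to 32.8 CPM in siACO1 (0.69, adjusted p 1.16e-09). FN1, whose product fibronectin binds ADAMTS4, rose in siSLC25A1 from 2.26 to 3.63 CPM (0.69, adjusted p 0.00423). SDC4, a heparan sulfate proteoglycan that is also a sheddase substrate, fell in siSLC25A1 (-0.21, adjusted p 0.000367) and siACO1 (-0.19, adjusted p 0.000401). SERPINE2, a protease inhibitor, fell in siACO1 from 1.11 to 0.610 CPM (-0.84, adjusted p 0.0299), a call lost without siControl replicate 1 or 2 or siACO1 replicate 1 or 2.

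Of 15 other ADAMTS genes 4 were tested: 3 fell and 0 rose in siSLC25A1, 2 fell and 1 rose in siACLY, and 2 fell in siACO1, or 1 without siACO1 replicate 3. Of all genes 9.27%, 18.3% and 19.3% fell in these comparisons, and 4 genes are too few to read against that. Over the 4 genes the median log2 fold change was -0.49, -0.32 and -0.40. ADAMTS7, which cleaves cartilage oligomeric matrix protein, fell from 23.8 CPM to 19.1 in siSLC25A1 (-0.32, adjusted p 0.00434), to 20.1 in siACLY (-0.24, adjusted p 0.0171) and to 18.5 in siACO1 (-0.37, adjusted p 0.000468). The siACLY call for ADAMTS7 was lost without siControl replicate 2 or siACLY replicate 2 and with library totals. ADAMTS14, a procollagen N-proteinase, fell from 1.57 to 0.721 CPM in siSLC25A1 (-1.12, adjusted p 0.00802) and to 0.788 CPM in siACO1 (-1.01, adjusted p 0.00704). The first call was lost without siControl replicate 2 or siSLC25A1 replicate 2, the second without siControl replicate 2 or siACO1 replicate 3. ADAMTS10, a fibrillin-binding member, fell in siACLY from 2.59 to 1.44 CPM (-0.87, adjusted p 0.0042), and in siSLC25A1 its call (-0.66, adjusted p 0.0469) was lost under 9 of 18 alternatives. ADAMTS17 rose in siACLY from 0.817 to 1.57 CPM (0.95, adjusted p 0.0291), a call lost without siControl replicate 1, siControl replicate 2 or siACLY replicate 2.

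ADAMTS-like proteins share the ancillary domains of the family but lack the protease, and 5 of 7 were tested. In siSLC25A1 1 rose and 1 fell, in siACLY 1 rose and 2 fell, and in siACO1 1 rose and 2 fell, or 0 and 2 without siACO1 replicate 3. The shares of all genes were 10.3%, 18.4% and 17.8% for rises and 9.27%, 18.3% and 19.3% for falls. Over the 5 genes the median was 0.28, -0.01 and -0.17 on the log2 scale. ADAMTSL4, a microfibril protein, rose in siSLC25A1 from 18.9 to 24.6 CPM (0.38, adjusted p 0.00123) and fell in siACO1 to 11.0 CPM (-0.79, SE 0.089, adjusted p 3.79e-08). ADAMTSL1 rose in siACLY from 0.408 to 1.21 CPM (1.54, adjusted p 0.001). Its level of 0.793 CPM in siACO1 completes the count there, named after its values were seen (0.98, adjusted p 0.0388). At its low siControl level, a fall of ADAMTSL1 could hardly be called. THSD4, which promotes fibrillin assembly, fell in siACLY from 12.0 to 8.16 CPM (-0.54, adjusted p 0.000373), and its fall in siSLC25A1 (-0.34, adjusted p 0.0328) was lost under 5 of 18 alternatives. ADAMTSL5 fell in siACLY (-0.31, adjusted p 0.000416), and its call in siACO1 (-0.17, adjusted p 0.0458) was lost under 9 of 18.

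Among 13 other ADAM genes 5 were tested. In siSLC25A1 3 fell, in siACLY 1 rose and 3 fell, and in siACO1 1 rose and 1 fell, as they did without siACO1 replicate 3, where 6 were tested. Over all genes 10.3%, 18.4% and 17.8% rose and 9.27%, 18.3% and 19.3% fell. The 5 genes had a median log2 fold change of -0.22, -0.19 and -0.01. ADAM15, a catalytically active membrane protease, fell from 132.8 CPM to 113.9 in siSLC25A1 (-0.22, adjusted p 0.000407), 114.9 in siACLY (-0.21, adjusted p 0.000339) and 108.2 in siACO1 (-0.30, adjusted p 3.17e-06). ADAM8 fell from 18.6 CPM to 14.6 in siACLY (-0.35, adjusted p 0.000982), and its call in siSLC25A1 (-0.25, adjusted p 0.0258) was lost without siControl replicate 1 or 3 or siSLC25A1 replicate 2. ADAM11 and ADAM22 lack protease activity. ADAM11 fell in siSLC25A1 from 32.5 to 22.01 CPM (-0.57, SE 0.062, adjusted p 7e-08), and ADAM22 rose from 31.7 to 44.4 CPM in siACLY (0.49, SE 0.060, adjusted p 1.62e-07) and to 41.0 CPM in siACO1 (0.37, adjusted p 1.39e-05). Named after its values were seen, ADAM11 also fell in siACLY (-0.19, adjusted p 0.0136).

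Matrix metalloproteases, a separate branch of zinc proteases, were mostly low: 17 of 23 had counts and 8 passed the filter. In siSLC25A1 1 rose and 2 fell, in siACLY 1 fell, and in siACO1 3 fell, also without siACO1 replicate 3. Beside these counts, 10.3%, 18.4% and 17.8% of all genes rose and 9.27%, 18.3% and 19.3% fell. The 8 genes had median log2 fold changes of 0.04, -0.17 and 0.13. All named members are membrane-bound. MMP15 fell from 31.5 CPM to 23.6 in siSLC25A1 (-0.41, adjusted p 4.17e-05), 22.1 in siACLY (-0.51, adjusted p 6.06e-07) and 24.1 in siACO1 (-0.39, adjusted p 2.89e-05). MMP17 fell in siACO1 from 1.92 to 0.686 CPM (-1.48, SE 0.249, adjusted p 2.29e-05), and its call in siSLC25A1 (-0.68, adjusted p 0.0385) was lost under 7 of 18 alternatives. MMP24 rose in siSLC25A1 from 4.19 to 5.87 CPM (0.48, adjusted p 0.0147), a call lost without siControl replicate 2 or siSLC25A1 replicate 2, and fell in siACO1 to 3.05 CPM (-0.46, adjusted p 0.0172), a call lost without siACO1 replicate 2.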

How the data were processed

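Poly(A) RNA of 12 MiaPaCa-2 libraries, 3 per group, was sequenced by the authors, who deposited raw read counts per gene, not normalized, per the file headers and values. The submitters' processing notes name CASAVA, FastQC, Trim Galore, STAR 2.7.0e and DESeq2 and the builds GRCh38 and GRCm39. The counter, annotation release and strand setting are not given in the sources used here. Symbols came from a gene name table (62700 of 70116 identifiers, 89.4%), and places and exon lengths from GENCODE release 29.

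From these counts, filterByExpr kept 16197 genes, TMM scaled the libraries, and edgeR 4.0.16 (R 4.3.3, limma 3.58.1) fitted a robust quasi-likelihood model to all 12 libraries without a block (8 residual degrees of freedom, common biological coefficient of variation 4.89%). Tests were two-sided F tests, Benjamini-Hochberg adjusted over all genes tested, called under 0.05. All adjusted p-values are from this fit unless another tool is named. The script was tested on simulated data. Alternatives were DESeq2 1.42.0, other scaling, other filters, a replicate block and leaving out each library. List counts without siACO1 replicate 3 were chosen after seeing the data.

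The members and lists were chosen with earlier results of these data known. Named genes were the members, the 3 targets, the 5 genes most correlated with ADAMTS4, and per list and knockdown the 3 called genes of largest change with at least 1 CPM in the higher group; others are marked as chosen later. Exon overlaps were examined for the members only.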

Additional observations from a re-analysis of the deposited data

Results flagged for a closer look

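Over the 3 comparisons of one knockdown with another, a direct edgeR test called 6 differences of a member. The share of all genes called was 33.8% between siSLC25A1 and siACLY, and 42.1% in each comparison of these with siACO1. ADAM9 was higher in siSLC25A1 than in siACLY by 0.425 and than in siACO1 by 0.258 on the log2 scale. It was lower in siACLY than in siACO1, at -0.167. ADAM17 was lower in siSLC25A1 than in siACLY, at -0.206, and higher in siACLY than in siACO1 by 0.191. ADAM10 was higher in siSLC25A1 than in siACO1 by 0.158. In each of the 6 the 3 libraries of one group lay wholly apart from those of the other. The 6 were called from these same libraries, so this adds no further support. How many of all genes had such a separation between these pairs was not counted. Single outlying values of a member within a group of 3 libraries were not screened for. Over all genes, siACO1 replicate 3 stood apart from its group, as given above.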

How the results depend on the processing

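The number of members called against siControl kept its value under every scaling, filter and test tried in siSLC25A1 only, and changed in siACO1 and siACLY. With library totals in place of TMM, 1 member was called in siACO1 instead of 0: ADAM17, at 0.142 on the log2 scale. This scaling moved the median of all genes to 0.055 in siACO1 and 0.051 in siACLY. The count in siACLY, 3, fell to 2 wherever ADAM10 was lost, which included DESeq2 size factors in place of TMM and no filter on low counts. Leaving out single libraries gave 2 to 3 in siACLY and 2 to 3 between siACLY and siACO1. ADAM9 kept its direction and its side of the threshold under all 18 alternatives in each comparison.

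Directions turned only for values that did not pass the test. Without single libraries ADAM19 ranged from -1.065 to 0.531 in siSLC25A1, -0.264 to 0.815 in siACLY, -0.567 to 0.512 in siACO1, -1.293 to 0.092 between siSLC25A1 and siACLY, and -0.992 to 0.394 between siSLC25A1 and siACO1, where library totals gave -0.026. ADAM10 in siACO1 ranged from -0.019 to 0.025, and ADAM17 between siSLC25A1 and siACO1 from -0.035 to 0.013. A minimum of 10 counts in every library dropped ADAM19.

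Replicate numbers did not pair the libraries: deviations of same-numbered libraries correlated between -0.034 and 0.0672 over 18 pairs. With the replicate number as a block, 2 members were called in siSLC25A1, 3 in siACLY and 0 in siACO1, as without it. Depth limits ADAM19, ADAM12 and ADAMTS1, at 16 counts or fewer per library.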
